A study of Mus musculus with 24 samples.

Results

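The genes described here encode the subunits of Ca2+/calmodulin-dependent protein kinase II (CaMKII), one inhibitor of that kinase and the PSD-95 family of synaptic scaffolds. They were measured in the cerebral cortex of Fmr1 KO mice and WT littermates at postnatal day 7. Members were taken by gene symbol: every probe set of the Affymetrix mouse expression array whose annotation gives a single symbol out of Camk2a, Camk2b, Camk2d, Camk2g, Camk2n1, Dlg1, Dlg2, Dlg3 and Dlg4. This gave 28 probe sets for 9 genes, out of 18193 genes with a probe set of a single symbol.

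All mice were males on the FVB background, and the Fmr1 KO animals carried a null allele of Fmr1, which encodes the RNA-binding protein FMRP. Each lysate was cleared cytoplasm from the dissected cortices of 2 pooled mice, with white matter removed and cycloheximide present in the KO and the WT preparations alike. The 4 groups of 6 arrays were Fmr1 KO polyribosomal RNA, WT polyribosomal RNA, Fmr1 KO total RNA and WT total RNA. Polyribosomal RNA was pooled from gradient fractions 10 to 13, which carry mRNAs with 6 or more ribosomes, and total RNA came from the 20% of the same lysate that was set aside before the gradient. The tissue holds every cell type of the cortex, so in comparisons of KO with WT, fewer cells of a type and less RNA per cell cannot be told apart.

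Fmr1 checked the labels: at 3 probe sets every KO array lay below every WT array, with log2 differences of -3.71 to -1.20 among polyribosomal arrays and -3.28 to -1.03 among total RNA arrays (two-sided exact permutation test of 6 against 6, p = 0.00216 at each). The 24 arrays had medians between 3.17 and 3.20 on the log2 scale, and Pearson's r over all probe sets was 0.991 to 0.998 within groups. Of the marker genes on the array, 8 of 8 for excitatory neurons, 7 of 7 for interneurons and 7 of 7 for astrocytes averaged at least 4 on the log2 scale in each group. The same held for 5 or 6 of 7 oligodendrocyte lineage genes, 2 or 3 of 7 microglial, 0 or 1 of 6 endothelial, 0 of 3 blood, 1 of 4 choroid plexus, 2 of 3 striatal and 2 of 6 progenitor genes.

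CaMKII is a large holoenzyme whose subunits are switched on by Ca2+/calmodulin and can keep themselves active by phosphorylating each other, a step needed for long-term potentiation at excitatory synapses. The alpha subunit (Camk2a) is the forebrain form that accumulates as synapses mature, and its mRNA is carried into dendrites. The beta subunit (Camk2b) binds actin filaments. The gamma and delta subunits (Camk2g and Camk2d) are also made in many tissues outside the brain. CaMKIIN-alpha (Camk2n1) is a small protein that binds and inhibits the active kinase. The Dlg genes encode membrane-associated guanylate kinases, whose PDZ domains hold glutamate receptors and ion channels in the postsynaptic membrane: SAP97 (Dlg1), PSD-93 (Dlg2), SAP102 (Dlg3, on the X chromosome) and PSD-95 (Dlg4). SAP102 is prominent at young synapses and PSD-95 at mature ones. FMRP binds many neuronal mRNAs, and Camk2a and Dlg4 mRNAs are among its best studied targets.

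All 9 genes had at least 1 probe set bright enough to test. Testing needed a log2 value of 4 or more on 6 or more of the arrays in the comparison. Of the 28, 20 were tested and 8 were not in any of the 5 comparisons: 1 for Camk2a, 4 for Camk2d and 1 each for Camk2n1, Dlg1 and Dlg4. Those 8 stayed below 4 on each array. Levels of different probe sets are not compared with each other, because each has its own probes. For the gene as a whole, the probe set with the highest mean over the 24 arrays is given first.

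**Figure D1:**
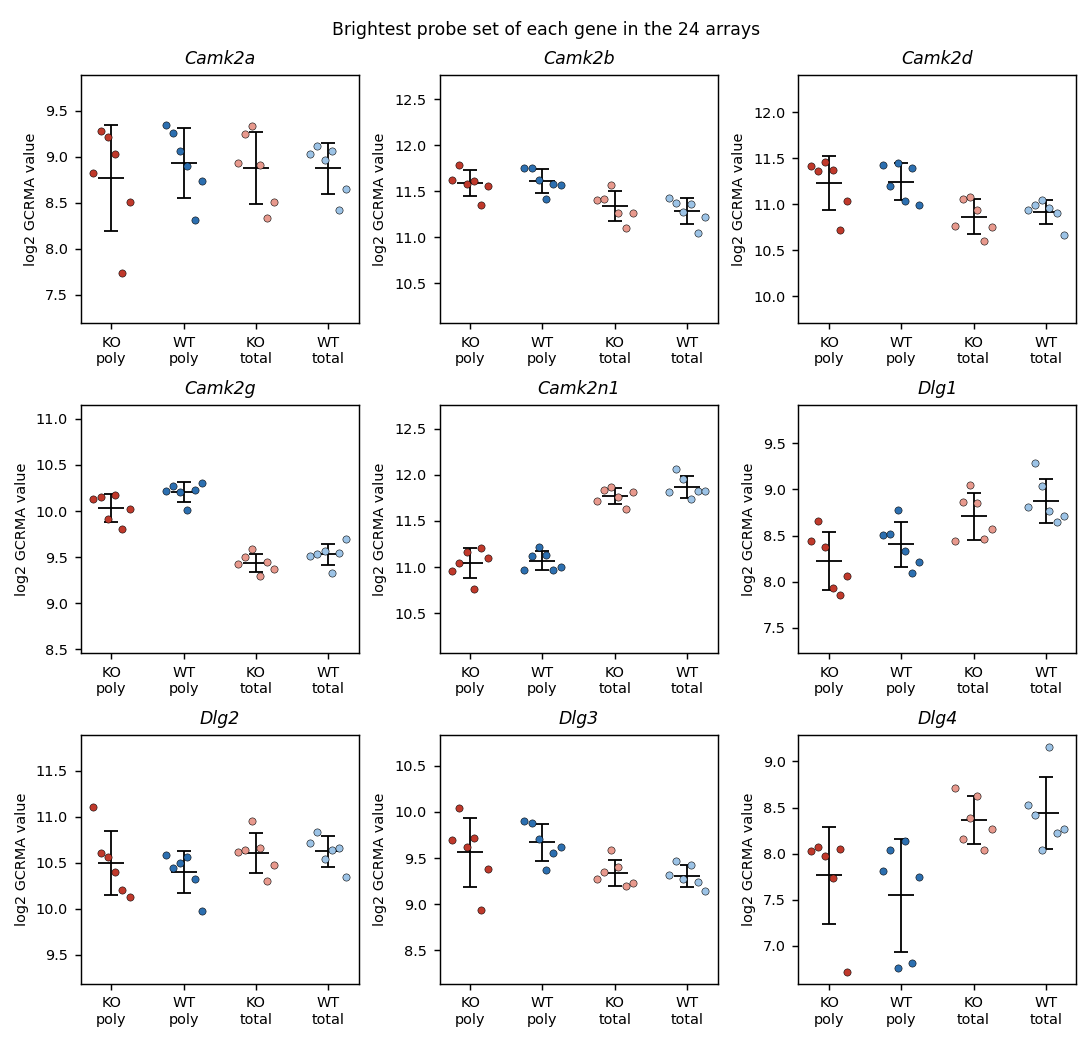
Deposited log2 values of the brightest probe set of each of the 9 genes on the 24 arrays, with 6 arrays per group (points) and the mean ± SD (bars) for Fmr1 KO and WT polyribosomal (poly) RNA and then for KO and WT total RNA. Axis ranges are equally wide but start at different values. Camk2g was higher and Camk2n1 lower on every polyribosomal array than on any total array.

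The first question was which of these mRNAs were over- or under-represented on large polyribosomes. The kinase subunit probe sets that passed the test were all higher on polyribosomes, and the scaffold probe sets that passed were lower, except that of Dlg3 in WT cortex. Of the 11 CaMKII subunit probe sets tested, 10 were higher in polyribosomal than in total RNA in Fmr1 KO cortex, 0 were lower and 1 did not pass the test, where 37.2% of all tested probe sets were higher and 28.7% lower. In WT cortex 8 were higher, 0 were lower and 3 did not pass, where 36.2% of all were higher and 29.1% lower. Of the 8 PSD-95 family probe sets, 0 were higher, 3 were lower and 5 did not pass in KO cortex, and 1 was higher, 6 were lower and 1 did not pass in WT cortex. Camk2n1 was lower in both genotypes.

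These calls come from limma with the lysate as a block and a Benjamini-Hochberg adjusted p under 0.05 over all probe sets tested. Without the block, 10 of the 14 KO calls and 12 of the 16 WT calls remained. The median log2 difference of the CaMKII subunit probe sets was 0.50 in KO and 0.33 in WT cortex, and that of the PSD-95 family was -0.19 in KO and -0.39 in WT cortex, beside 0.074 in KO and 0.072 in WT cortex over all tested probe sets. By the brightest probe set of each gene, 3 of the 9 genes were higher and 3 lower in KO cortex, where 38.7% of all genes tested were higher and 28.2% lower. In WT cortex 4 were higher and 4 lower, beside 37.5% and 28.4% of all genes. Of the 4 kinase subunit genes, 3 were higher and 0 lower in each genotype. Of the 4 scaffold genes, 0 were higher and 2 lower in KO, and 1 was higher and 3 lower in WT cortex. The 11 kinase subunit probe sets belong to those 4 genes, so they are not 11 separate mRNAs. With array medians near equal, a difference is relative to the other mRNAs of that fraction and not an amount per cell.

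**Figure D2:**
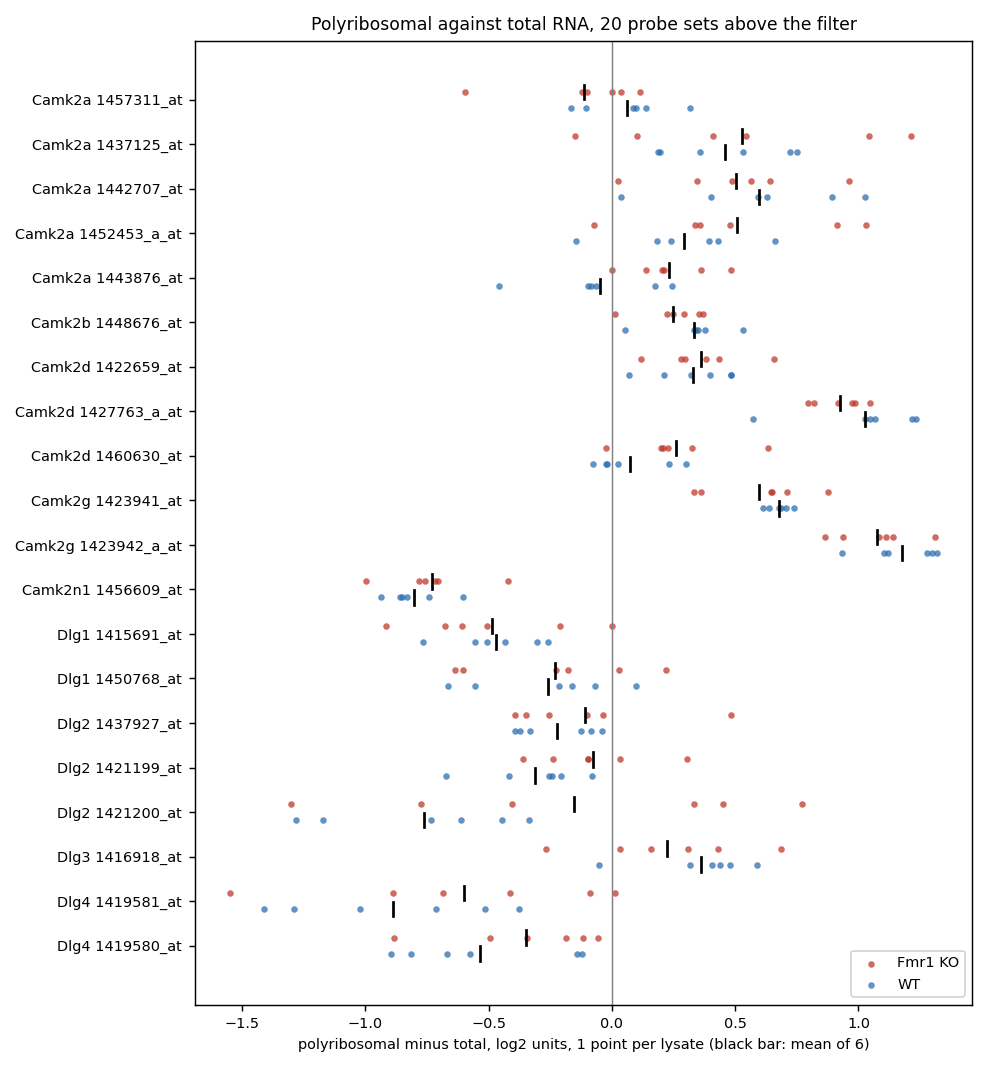
Polyribosomal minus total log2 value of the 20 tested probe sets, 1 point per lysate, with 6 Fmr1 KO lysates above 6 WT lysates in each row and a black bar at the mean. In each of the 12 lysates, Camk2g, Camk2b, Camk2d 1422659_at and 1427763_a_at, and Camk2a 1442707_at lay above 0. Camk2n1 and Dlg4 1419580_at lay below 0 in each.

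Camk2g, the gamma subunit, was higher on polyribosomes at both of its probe sets, and 1 of them had the highest difference of the 20 member probe sets in each genotype. At 1423941_at the lowest, median and highest log2 values were 9.81, 10.08 and 10.17 in KO polyribosomal RNA, against 9.30, 9.43 and 9.59 in KO total RNA. In WT cortex they were 10.01, 10.22 and 10.31 in polyribosomal RNA, against 9.33, 9.54 and 9.69 in total RNA. Polyribosomal and total arrays did not overlap in either genotype. The log2 difference was 0.60 ± 0.091 in KO (SE, 6 lysates, limma adjusted p = 0.000139) and 0.68 ± 0.076 in WT cortex (adjusted p = 1.59e-05), which is 1.51-fold in KO and 1.60-fold in WT. The other Camk2g probe set, 1423942_a_at, gave that highest difference, 2.11-fold in KO and 2.26-fold in WT cortex. It ranked above 97.9% of all tested probe sets in KO and above 99.2% in WT. Within each of the 6 KO and 6 WT lysates this probe set had the larger difference of the pair, by a mean of 0.48 log2 units in KO and 0.50 in WT.

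Camk2d, the delta subunit, was also higher on polyribosomes, by an amount that depended on the probe set. At the brightest, 1422659_at, values were 10.72, 11.36 and 11.46 in KO polyribosomal RNA (lowest, median and highest), against 10.60, 10.85 and 11.08 in KO total RNA. In WT they were 10.99, 11.29 and 11.44 in polyribosomal RNA, against 10.67, 10.95 and 11.05 in total RNA. The arrays overlapped, but each of the 6 lysates of each genotype was higher in polyribosomal RNA, by 0.36 ± 0.087 log2 units in KO (SE, adjusted p = 0.00317 in limma) and 0.33 ± 0.087 in WT (adjusted p = 0.00607). At 1427763_a_at the difference was 0.92 in KO and 1.03 in WT, a fold of 1.90 in KO and 2.04 in WT, with no overlap between the fractions. Its difference exceeded that at the brightest probe set in 6 of 6 KO and 6 of 6 WT lysates, by a mean of 0.56 log2 units in KO and 0.70 in WT. A dim probe set, 1460630_at, with group means of 4.24 to 4.51, passed in KO (0.26, adjusted p = 0.0261) and not in WT (0.074, adjusted p = 0.464). Its KO call was lost when replicate 1 (0.19, adjusted p = 0.0763), replicate 3 (0.25, adjusted p = 0.0615) or replicate 4 (0.27, adjusted p = 0.0517) was left out.

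Camk2b, the actin-binding beta subunit, has 1 probe set, 1448676_at. Its values in KO cortex were 11.35, 11.59 and 11.79 in polyribosomal RNA, against 11.10, 11.33 and 11.57 in total RNA. In WT cortex they were 11.42, 11.60 and 11.75 in polyribosomal RNA, against 11.04, 11.32 and 11.42 in total RNA. The shift was small and of one direction: 6 of 6 lysates were higher in polyribosomal RNA in each genotype. It came to 0.25 ± 0.080 log2 units in KO (SE, limma adjusted p = 0.0159) and 0.33 ± 0.086 in WT (adjusted p = 0.00531). The KO call was lost without replicate 4 (0.23, adjusted p = 0.0576) or replicate 6 (0.24, adjusted p = 0.0517).

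Camk2a, the alpha subunit, gave different answers at its 5 tested probe sets. The brightest, 1457311_at, had values of 7.74, 8.93 and 9.28 in KO polyribosomal RNA, against 8.33, 8.92 and 9.33 in KO total RNA. In WT the values were 8.31, 8.98 and 9.35 in polyribosomal RNA, against 8.42, 8.997 and 9.12 in total RNA. The fractions overlapped almost wholly, and the difference did not pass the test in KO (-0.11, 95% interval -0.33 to 0.11, adjusted p = 0.338) or in WT (0.062, 95% interval -0.13 to 0.26, adjusted p = 0.553). Higher values on polyribosomes were called at 3 other probe sets in both genotypes. They were 1442707_at, with differences of 0.50 in KO and 0.60 in WT, 1437125_at, with 0.53 in KO and 0.46 in WT, and the dim 1452453_a_at, with 0.51 in KO and 0.29 in WT. In each of the 6 KO and 6 WT lysates, the differences at 1442707_at and at 1437125_at exceeded that at 1457311_at, by means of 0.61 and 0.64 in KO and 0.54 and 0.40 in WT.

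Not all of the Camk2a calls were secure. Those at 1437125_at needed the lysate as a block, since without it the adjusted p was 0.24 in KO and 0.151 in WT. That at 1452453_a_at in WT was lost without replicate 1 (0.30, adjusted p = 0.0523), replicate 2 (0.22, adjusted p = 0.103), replicate 5 (0.27, adjusted p = 0.071) or replicate 6 (0.27, adjusted p = 0.0765). The fifth probe set, 1443876_at, lay near the filter, with group means of 4.11 to 4.38. It passed in KO (0.23, adjusted p = 0.03) and not in WT (-0.048, adjusted p = 0.69). Its KO call was lost without replicate 1 (0.18, adjusted p = 0.0824), replicate 2 (0.21, adjusted p = 0.0791), replicate 3 (0.24, adjusted p = 0.0534) or replicate 6 (0.25, adjusted p = 0.0528). At 1442707_at the calls in both genotypes held under each alternative tried.

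Camk2n1, the kinase inhibitor, went the other way from the kinase subunit probe sets that passed the test. At 1456609_at the values in KO cortex were 10.76, 11.07 and 11.21 in polyribosomal RNA, against 11.63, 11.79 and 11.86 in total RNA. In WT cortex they were 10.96, 11.06 and 11.21 in polyribosomal RNA, against 11.74, 11.83 and 12.06 in total RNA. The fractions did not overlap, and 6 of 6 lysates of each genotype were lower in polyribosomal RNA. The log2 difference was -0.73 ± 0.087 in KO (SE, limma adjusted p = 2.15e-05) and -0.80 ± 0.081 in WT (adjusted p = 7.28e-06), which is 1.66-fold lower in KO and 1.75-fold lower in WT. Only 12.5% of all tested probe sets in KO and 11.6% in WT lay below it. The dim second probe set of Camk2n1, 1440455_at, was not tested.

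Dlg4, the gene of PSD-95, was lower on polyribosomes at both of its tested probe sets. At 1419581_at the values in KO cortex were 6.72, 8.0 and 8.07 in polyribosomal RNA, against 8.04, 8.33 and 8.71 in total RNA. In WT cortex they were 6.75, 7.78 and 8.13 in polyribosomal RNA, against 8.04, 8.34 and 9.16 in total RNA. The fractions overlapped slightly, and 5 of 6 KO and 6 of 6 WT lysates were lower in polyribosomal RNA. The log2 difference was -0.60 ± 0.17 in KO (SE, limma adjusted p = 0.00901) and -0.89 ± 0.14 in WT (adjusted p = 0.000165). At 1419580_at it was -0.35 in KO (adjusted p = 0.0153) and -0.54 in WT (adjusted p = 0.00186). Replicate 6 of KO polyribosomal RNA stood apart at both probe sets, at 6.72 and 6.10, where the other 5 lay at 7.74 to 8.07 and at 6.88 to 7.11. Without replicate 6 the KO difference at 1419581_at still passed (-0.41, adjusted p = 0.0235), and at 1419580_at it no longer passed (-0.24, adjusted p = 0.0622).

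Dlg1, the gene of SAP97, was lower on polyribosomes at its brightest probe set, 1415691_at. Values in KO cortex were 7.85, 8.22 and 8.65 in polyribosomal RNA, against 8.44, 8.71 and 9.05 in total RNA. In WT cortex they were 8.09, 8.41 and 8.77 in polyribosomal RNA, against 8.65, 8.78 and 9.29 in total RNA. The fractions overlapped, with 5 of 6 KO and 6 of 6 WT lysates lower in polyribosomal RNA. The log2 difference was -0.49 ± 0.11 in KO (SE, limma adjusted p = 0.00292) and -0.47 ± 0.090 in WT (adjusted p = 0.00076). The second probe set, 1450768_at, had values in the same direction that did not pass, -0.23 in KO (adjusted p = 0.0977) and -0.26 in WT (adjusted p = 0.0532). It passed in KO without replicate 2 (-0.32, adjusted p = 0.0266) and in WT without replicate 1 (-0.33, adjusted p = 0.0276).

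Dlg2, the gene of PSD-93, was called lower on polyribosomes in WT cortex at all 3 of its probe sets, and in KO cortex at 0 of 3. The brightest, 1437927_at, had values of 10.13, 10.48 and 11.10 in KO polyribosomal RNA, against 10.31, 10.63 and 10.95 in KO total RNA. In WT they were 9.98, 10.47 and 10.59 in polyribosomal RNA, against 10.35, 10.65 and 10.84 in total RNA. These ranges overlapped widely, and the differences were -0.11 in KO (limma adjusted p = 0.414) and -0.22 in WT (adjusted p = 0.039). The WT call did not hold without replicate 1 (-0.24, adjusted p = 0.0547), replicate 2 (-0.19, adjusted p = 0.116), replicate 5 (-0.20, adjusted p = 0.101) or replicate 6 (-0.19, adjusted p = 0.124), nor with the arrays centred on their medians (adjusted p = 0.084). In KO the probe set passed without replicate 1 (-0.23, adjusted p = 0.0442).

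The dimmer Dlg2 probe set 1421200_at had the largest difference between genotypes of the 20. Its values were 5.23, 5.74 and 7.08 in KO polyribosomal RNA, against 5.43, 6.18 and 6.53 in KO total RNA. In WT they were 5.59, 5.67 and 6.07 in polyribosomal RNA, against 5.92, 6.30 and 7.24 in total RNA. KO polyribosomal RNA had the widest range of the 4 groups. The polyribosomal minus total differences per lysate were -1.30, -0.036 and 0.77 in KO (lowest, median and highest) and -1.28, -0.67 and -0.34 in WT. The KO lysates thus fell on both sides of 0, 3 above and 3 below, while all 6 WT lysates were below 0. The mean difference was -0.15 in KO (limma adjusted p = 0.571) and -0.76 in WT (adjusted p = 0.000315). The third probe set, 1421199_at, had -0.075 in KO (adjusted p = 0.5) and -0.31 in WT (adjusted p = 0.012), and its WT call was lost without the lysate block (adjusted p = 0.0528). The genotype contrast itself is given below, and it did not pass at any of the 3.

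Dlg3, the gene of SAP102, was the only scaffold gene of the 4 with a call towards the polyribosomes, and that in WT. At its 1 probe set, 1416918_at, the values in KO cortex were 8.93, 9.66 and 10.04 in polyribosomal RNA, against 9.20, 9.31 and 9.58 in total RNA. In WT cortex they were 9.37, 9.66 and 9.90 in polyribosomal RNA, against 9.14, 9.29 and 9.47 in total RNA. In each genotype 5 of 6 lysates were higher in polyribosomal RNA. The difference was 0.23 ± 0.11 log2 units in KO (SE, limma adjusted p = 0.103), which did not pass, and 0.36 ± 0.096 in WT (adjusted p = 0.00599), which did. One KO array, replicate 5 of polyribosomal RNA, was low at 8.93, and without replicate 5 the KO difference passed (0.32, adjusted p = 0.0191).

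The second question was whether loss of Fmr1 changed these mRNAs. None of the 20 member probe sets was called between Fmr1 KO and WT in polyribosomal RNA, and none in total RNA. In polyribosomal RNA limma called 0 of 20, 0 had an unadjusted p under 0.05, and the lowest was 0.0884, at Camk2g 1423941_at. Over the whole array 3 of 17687 probe sets (0.0170%) were called. In total RNA limma also called 0 of 20, with 0 unadjusted p under 0.05 and a lowest of 0.0796, at Dlg2 1421200_at. There 7 of 17850 probe sets (0.0392%) were called, and 4 with the replicate number as a block. The other settings tried also called 0 members.

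The intervals show what 6 against 6 arrays could resolve. For Camk2a 1457311_at, values in polyribosomal RNA were 7.74, 8.93 and 9.28 in KO, against 8.31, 8.98 and 9.35 in WT cortex, and the log2 difference was -0.17 (95% interval -0.68 to 0.34). In total RNA it was 0.0017 (95% interval -0.37 to 0.37). Dlg4 1419581_at had 6.72, 8.0 and 8.07 in KO polyribosomal RNA, against 6.75, 7.78 and 8.13 in WT, a difference of 0.21 (95% interval -0.37 to 0.80). The low arrays were replicate 6 in KO, at 6.72, and replicates 3 and 5 in WT, at 6.75 and 6.81. In total RNA the Dlg4 difference was -0.073 (95% interval -0.43 to 0.29). For these 2 mRNAs the KO and WT arrays overlapped in both RNA sources. With the replicate number as a block, the Camk2a interval narrowed to -0.44 to 0.10 in polyribosomal and -0.17 to 0.17 in total RNA. That of Dlg4 was then -0.37 to 0.80 in polyribosomal and -0.31 to 0.17 in total RNA.

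Other members were measured more tightly. Camk2b differed by -0.028 in polyribosomal RNA (95% interval -0.24 to 0.18) and by 0.053 in total RNA (95% interval -0.13 to 0.23). Camk2n1 differed by -0.027 in polyribosomal RNA (95% interval -0.24 to 0.18) and by -0.10 in total RNA (95% interval -0.24 to 0.037). Camk2g 1423941_at was lower in KO than in WT in 5 of 6 same-numbered pairs in each RNA source, with differences of -0.17 (95% interval -0.38 to 0.029) in polyribosomal and -0.092 (95% interval -0.24 to 0.050) in total RNA that did not pass. Across the 20 probe sets the differences ranged from -0.21 to 0.27 in polyribosomal RNA, with a median of -0.027, beside 0.0075 over all tested probe sets. In total RNA they ranged from -0.44 to 0.053, with a median of -0.075, beside -0.013 over all tested probe sets. The median half-width of a 95% interval was 0.33 in polyribosomal RNA and 0.25 in total RNA, and 0.27 and 0.19 with the replicate block.

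**Figure D3:**
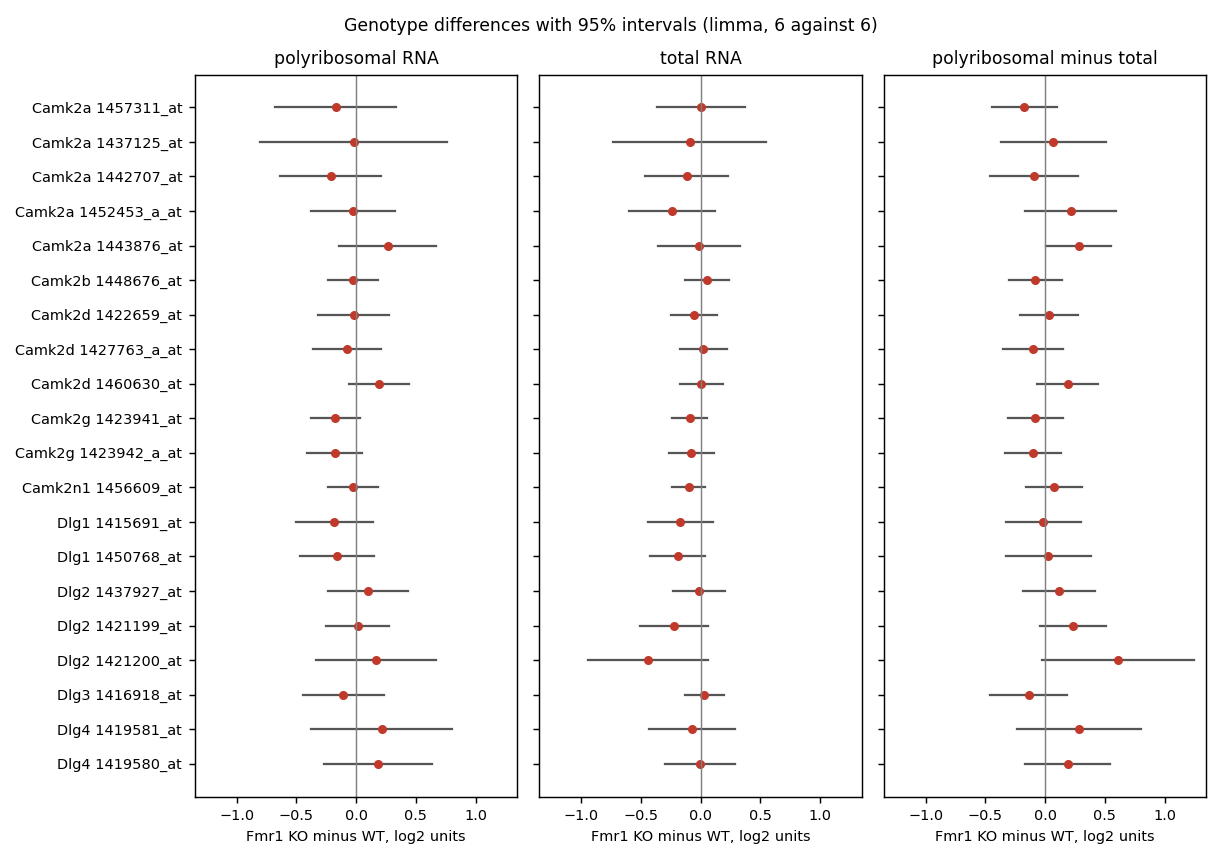
Fmr1 KO minus WT difference of each of the 20 tested probe sets (point) with its 95% interval (line) in log2 units, in polyribosomal RNA, in total RNA and for the polyribosomal minus total difference, from limma with 6 KO against 6 WT and no replicate block. All intervals but that of Camk2a 1443876_at in the right panel include 0.

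The third question was whether the polyribosomal minus total difference itself changed with genotype, tested on the 6 KO and 6 WT lysate differences. No member passed: limma called 0 of 20, and 0 of 18544 probe sets (0%) on the whole array. One member, Camk2a 1443876_at, the dim probe set near the filter, had an unadjusted limma p under 0.05. Its KO minus WT difference was 0.28 (95% interval 0.0092 to 0.55, adjusted p = 0.999). The largest value was that of Dlg2 1421200_at, 0.61 (95% interval -0.025 to 1.24, adjusted p = 0.999), which was higher in KO in 5 of 6 same-numbered pairs. With the replicate number as a block its interval was 0.12 to 1.09, with an unadjusted p under 0.05 and a limma adjusted p of 0.999, and that of Camk2a 1443876_at was -0.0012 to 0.56. Dlg2 1421199_at was higher in KO in 6 of 6 pairs, by 0.24 (95% interval -0.040 to 0.51, adjusted p = 0.999), and the brightest Dlg2 probe set in 4 of 6, by 0.12. For Dlg4 1419581_at the difference was 0.29 (95% interval -0.23 to 0.81) and for Camk2a 1457311_at -0.17 (95% interval -0.45 to 0.10). The shift of most CaMKII subunit probe sets towards polyribosomes and of Camk2n1 away from them is therefore given for each genotype alone. A difference in the size of the shift between KO and WT was not detected at this precision, with a median interval half-width of 0.29.

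Levels of several members varied with the replicate number, in KO and WT arrays and in both RNA sources. At Camk2a 1457311_at replicate 5 was the lowest array in 4 of 4 groups, and replicates 5 and 6 were the 2 lowest in 4 of 4, averaging -0.66 and -0.26 from their group means. At Camk2a 1437125_at replicates 5 and 6 were again the 2 lowest in 4 of 4 groups, at -0.92 and -0.60. The Camk2a probe sets were not alike in this. At 1442707_at replicate 5 averaged -0.15 and was among the 2 lowest in 3 of 4 groups. At 1452453_a_at it averaged -0.10 and was among the 2 lowest in 1 of 4. At the dim 1443876_at replicate 5 was the lowest array in 4 of 4 groups, at -0.40. Replicate 5 was among the 2 lowest in 4 of 4 groups also for Dlg1 1415691_at (-0.29) and Dlg3 (-0.24), and in 3 of 4 for Camk2b (-0.19). Camk2g 1423941_at (-0.048) and Camk2n1 (-0.028) stayed close to their group means in replicate 5. The Dlg2 probe sets 1421199_at (0.23) and 1421200_at (0.24) averaged above theirs, and for each replicate 5 was the highest array in 2 of 4 groups. The brightest Dlg2 probe set averaged below (-0.16). The summed signal of 8 excitatory neuron markers lay between 12.73 and 12.98 on the log2 scale over all 24 arrays. Linear values were summed, so the brightest marker weighs most. That is Neurod6, with a mean of 12.17 in total RNA, ahead of Slc17a6 at 10.03. A flat sum therefore does not show that each excitatory marker was steady. That of 7 astrocyte markers lay between 12.46 and 13.33, and replicate 5 was its lowest array in 3 of 4 groups (12.46 in KO polyribosomal, 12.54 in KO total and 12.54 in WT total RNA) and among the 2 lowest in 4 of 4. After group means were removed, the brightest probe sets of Camk2a and Dlg3 correlated with r = 0.83 over 24 arrays and those of Camk2a and Camk2b with r = 0.81, while Camk2a and Camk2n1 had r = 0.026 and Camk2a and Dlg4 r = 0.31. These arrays share lysates and animals, so the values are a description. Some of the other marker sums, not all, ranged more widely than that of astrocytes. The choroid plexus sum ran from 4.93 on a KO total array to 12.20 on a WT polyribosomal array. That of the oligodendrocyte lineage ran from 10.67 on a KO total array to 12.16 on a WT polyribosomal array. These 2 sums are not given here by replicate number. What set replicates 5 and 6 apart, and the part of any cell type signal in it, was not tested.

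**Figure D4:**
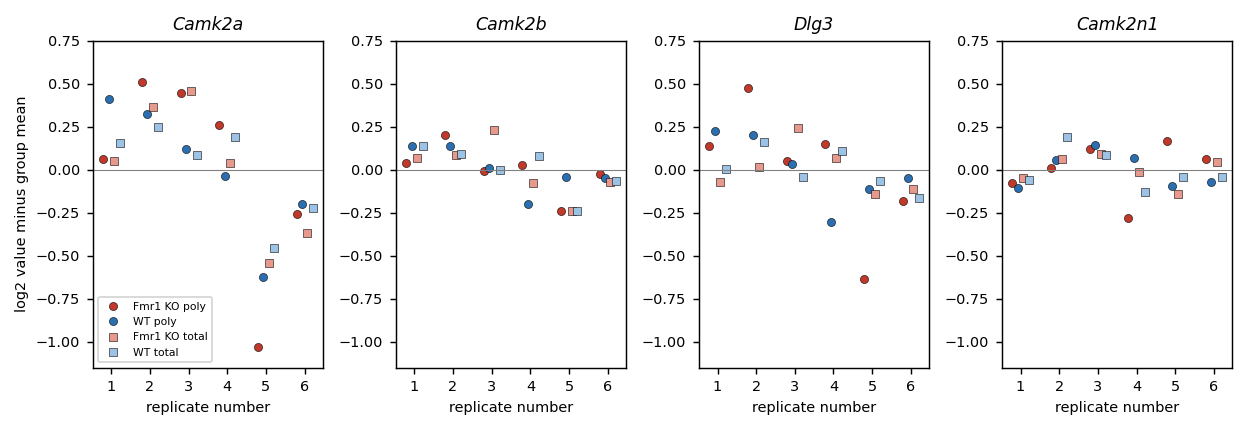
Log2 value minus the group mean for the brightest probe sets of Camk2a, Camk2b, Dlg3 and Camk2n1, by replicate number as given in the labels, with 1 point per array and 4 groups (Fmr1 KO and WT polyribosomal RNA as circles, KO and WT total RNA as squares). All 4 Camk2a points of replicate 5 lie below those of the other numbers in their group, and Camk2n1 shows no such drop.

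Over the 24 arrays, the genes whose brightest probe sets followed Camk2a 1457311_at most closely among 9954 genes were Nefh, a heavy neurofilament subunit (Pearson's r = 0.90), Kcnt1, a sodium-activated potassium channel (r = 0.90), and Disp2 (r = 0.89). Those that followed Dlg4 1419581_at most closely were Krt222 (r = 0.85), Blcap (r = 0.84) and Foxk2, a forkhead factor (r = 0.84). These are the highest of many correlations on arrays that share lysates and carry no test.

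Lists set these genes beside others of their pathways. That of calcium/calmodulin signalling held 32 genes, of which 27 were tested. That of relatives and partners of the PSD-95 family held 52 gene symbols, of which 42 were tested in polyribosomal against total RNA. Among the 52, Pals1 and Pals2 are other names of Mpp5 and Mpp6. In the calcium/calmodulin list 10 genes were higher on polyribosomes, 6 lower and 11 not past the test in KO cortex, where 38.7% of all genes tested were higher and 28.2% lower, with a median log2 difference of 0.035. In WT cortex 10 were higher, 5 lower and 12 not past the test, where 37.5% of all genes were higher and 28.4% lower, with a median of 0.088. The medians over all genes tested were 0.087 in KO and 0.089 in WT. Higher in both genotypes were the kinase Camk1 (0.61 in KO, 0.59 in WT), its activating kinase Camkk2 (0.58 in KO, 0.58 in WT) and the kinase-like vesicle protein Camkv (0.52 in KO, 0.65 in WT). Among the 4 highest were also the cyclase Adcy8 in KO (0.44) and the kinase Camk1g in WT (0.70). These genes were called higher in the other genotype too, Adcy8 with 0.56 in WT and Camk1g with 0.36 in KO.

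The second CaMKII inhibitor gene, Camk2n2, was lower on polyribosomes by more than Camk2n1, at -1.55 in KO (limma adjusted p = 1.34e-07) and -1.36 in WT (adjusted p = 1.18e-06). The protein phosphatase inhibitor Ppp1r1a had -2.14 in KO and -2.20 in WT. The calmodulin-binding proteins Pcp4 (-1.46 in KO, -1.48 in WT) and Nrgn, neurogranin (-0.64 in KO, -0.57 in WT), were lower as well.

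Of the relatives and partners of PSD-95, 8 were higher on polyribosomes, 16 lower and 18 not past the test in KO cortex, with a median of -0.034. In WT cortex 9 were higher, 15 lower and 18 not past the test, with a median of -0.061. Over all genes tested, 38.7% were higher and 28.2% lower in KO, and 37.5% higher and 28.4% lower in WT. The adaptor Apba2 (1.10 in KO, 1.19 in WT) and the guanylate kinase relatives Mpp1 (0.64 in KO, 0.75 in WT) and Mpp3 (0.49 in KO, 0.61 in WT) were higher. The potassium channel genes Kcna1 in KO (0.40) and Kcnj4 in WT (0.33) were the next highest. Kcna1 was also called higher in WT (0.25), and Kcnj4 was not called in KO (0.094). Lower were Cript, whose product binds a PDZ domain of PSD-95 (-2.24 in KO, -2.27 in WT), the depalmitoylase Abhd17a (-1.79 in KO, -1.66 in WT), the palmitoyltransferase Zdhhc3 (-1.33 in KO, -1.44 in WT) and the scaffold Lin7a (-1.28 in KO, -1.57 in WT). Between Fmr1 KO and WT, limma called 0 genes of either list in polyribosomal RNA, where 1 gene of each had an unadjusted p under 0.05, and 0 in total RNA, where 0 had one. For the polyribosomal minus total difference it called 0 as well, and 1 gene of the calcium/calmodulin list and 0 of the other had an unadjusted p under 0.05.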

How the data were processed

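RNA from 12 cortical lysates was hybridised to 24 one-colour arrays (6 Fmr1 KO and 6 WT, polyribosomal and total RNA of each). The deposited values are log2 expression per probe set, which the authors made with GCRMA per the submitters' processing notes (version not stated). They were used as deposited, so the precision rests on the number of arrays. Scan dates, and so batches, are not given in the sources used here. Gene names came from the platform annotation: of 45037 probe sets, 34945 have 1 symbol, 932 several and 9160 none.

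Groups were taken from the labels. Differences were fitted with limma 3.58.1 in R 4.3.3 (lmFit, eBayes) over all probe sets that reached a log2 value of 4 on 6 or more arrays of the comparison, Benjamini-Hochberg adjusted, with a threshold of 0.05. Polyribosomal and total RNA of 1 lysate were blocked on the lysate. KO and WT were compared without a block, and the genotype difference in polyribosomal minus total on lysate differences. The replicate number as a block was an alternative. Deviations of same-numbered KO and WT arrays from their group means correlated at -0.14 to 0.63 in polyribosomal RNA (4 of 6 pairs over 0.1) and at 0.13 to 0.53 in total RNA (6 of 6). The study describes littermate pairs, and the labels do not say that a number marks one.

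The other alternatives were no filter, a filter at 5, median centring, quantile normalisation, a trended robust eBayes, all 24 arrays with the lysate as a random block, and leaving out each replicate number. The method was tested on simulated data first. The simulated arrays kept no pairing of fractions by lysate, so fits that use the lysate were not tested with such pairing. All probe sets of the members, and the highest and lowest 4 called genes of each pathway list, are named. The members and lists were chosen with earlier results of these data known. Figures were drawn with matplotlib 3.10.9.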

Additional observations from a re-analysis of the deposited data

Results flagged for a closer look

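Single arrays stood apart from the other 5 of their group in 8 of the 80 groups of 6 values checked for the 20 tested probe sets (Dixon's test at the 95% level), where chance marks about 1 in 20 groups, or 4 here. Both Dlg4 probe sets were low in replicate 6 of KO polyribosomal RNA, at 6.72 for 1419581_at and 6.10 for 1419580_at. Both Camk2g probe sets were low in replicate 4 of WT polyribosomal RNA, at 10.01 for 1423941_at and 9.14 for 1423942_a_at. Replicate 3 of KO total RNA was high at Camk2a 1443876_at, at 4.83, and at Camk2d 1427763_a_at, at 8.93. Replicate 6 was low at Camk2a 1452453_a_at in KO total RNA, at 3.46, and at Camk2d 1422659_at in WT total RNA, at 10.67.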

How the results depend on the processing

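The counts of called members moved by less than 1.5 times under each alternative run. For polyribosomal against total RNA, 10 to 17 probe sets were called in KO against 14 as reported, and 12 to 18 in WT against 16. The highest counts, 17 and 18, came from the run with no filter, which tested all 28 member probe sets. The filter at 5 tested 17, and the other runs 20. Treating the fractions as independent, with no replicate block, gave 10 in KO (7 higher, 3 lower) and 12 in WT (7 higher, 5 lower). The calls lost were Camk2a 1437125_at (adjusted p = 0.24), Camk2a 1443876_at (0.263), Camk2d 1460630_at (0.0535) and Dlg4 1419580_at (0.0608) in KO, and Camk2a 1437125_at (0.151), Camk2a 1452453_a_at (0.0562), Dlg2 1437927_at (0.0949) and Dlg2 1421199_at (0.0528) in WT, by limma. That fit keeps the spread between lysates in its error. Between genotypes 0 members were called under each alternative. With the replicate number as a block, 0 of 20 were called in polyribosomal RNA (lowest adjusted p 0.968), total RNA (0.576) and the polyribosomal minus total difference (0.999), so the pairing changed no call of a member, while the interval of Dlg2 1421200_at for that difference (0.12 to 1.09) excluded 0. Of the values for single probe sets, 1194 were called, or not called, as reported, 27 lost a call and 4 gained one. Among values with a call, 0 reversed. Direction was not compared where neither setting gave a call, and there some signs changed. Over the alternatives, Camk2a 1437125_at ranged from -0.13 to 0.12 for KO against WT in polyribosomal RNA. Dlg2 1421200_at ranged from -0.34 to 0.075 for polyribosomal against total RNA in KO. Over the whole array, probe sets called between genotypes in total RNA numbered 7, against 2 to 4 with 1 replicate number left out and 4 with the replicate block. In polyribosomal RNA they numbered 3, against 5 with all 24 arrays in 1 fit. Probe sets below 4 on the log2 scale have little signal over background, and 8 member probe sets are limited in this way.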
